A study of Mus musculus with 14 samples.

Results

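The 26S proteasome is the cell's main protease for ubiquitin-tagged proteins, and the genes of its constitutive subunits were followed here in dentate gyri that lacked the amyloid precursor protein. The members were the protein-coding genes whose symbols start with Psma, Psmb, Psmc, Psmd or Psme and a number, without the immunoproteasome genes Psmb8, Psmb9 and Psmb10. There were 42 such genes among 55291 gene symbols. They comprised 16 genes of the 20S core, 20 of the 19S cap, 5 of the activators and Psmc3ip, which matched by its symbol alone and encodes a cofactor of meiotic recombination. The 20 cap genes include 3 base assembly chaperones (Psmd5, Psmd9 and Psmd10). For brevity the 41 genes without Psmc3ip are called subunit genes below, with these chaperones and the activators included. 40 of the 42 passed the expression filter, as did 22150 genes in all. The 2 that did not were Psma8, the testis form of an alpha subunit, and Psmb11, the thymus form of a catalytic subunit, which had at most 18 and 14 counts in any library.

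Polyadenylated RNA was sequenced from dentate gyri of mouse organotypic entorhino-hippocampal slice cultures, in which the entorhinal cortex remains attached to the hippocampus. Slices were prepared at postnatal day 4 to 5 and kept for at least 18 days. 6 libraries came from wildtype C57BL/6J cultures (APP+/+) and 8 from cultures of a constitutive APP-deficient line (APP-/-, named APPko), with 1 dentate gyrus per library and no further treatment. The labels call the libraries biological replicates and give no animal for a culture, so each p-value refers to the variation among cultures only. No source used here tells how closely the APPko line matched C57BL/6J outside the App locus, and the only member on the chromosome of App, Psmd2, lies 64.3 Mb away from it.

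Library totals ran from 16686909 to 31031126 counts. App had 809 ± 131 CPM (counts scaled to library size by TMM, SD over the 6 libraries) in wildtype and 214 ± 17.9 CPM in APPko (SD over 8), and every library went with its label. The headers of the count tables carry f or m, with 3 wildtype and 7 APPko libraries marked f and 3 wildtype libraries and 1 APPko library marked m. Wildtype libraries 2 and 3 stood apart from the other 12. Their TMM factors were 0.852 and 0.847 against 0.976 to 1.09 in the others, and both carry f. Where leaving them out turned the direction of a log2 change or ratio given below, or moved it by more than 1.5 times, the value without them is also given. In whole tissue, fewer cells of a type and less RNA per cell cannot be told apart. Prox1, which marks dentate granule cells, was present in all libraries with 158 ± 40.5 CPM in wildtype and 152 ± 33.4 CPM in APPko.

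The 20S core is a barrel of stacked rings. The outer rings are made of alpha subunits, which gate the entrance, and the inner rings of beta subunits, of which Psmb5, Psmb6 and Psmb7 carry the active sites with chymotrypsin-like, caspase-like and trypsin-like specificity. The 19S cap sits on the barrel: its base holds a ring of ATPases (the Psmc genes) that unfolds substrates, and its lid removes ubiquitin through the deubiquitinase Psmd14. Activators of the Psme family open the barrel without ATP. Neurons depend on the complex for the turnover of synaptic proteins, and transcription of its subunits is driven together by the factor Nfe2l1 when proteasome activity falls short.

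Promoter stretches of 4 subunits are shown because their levels set the subunits of 1 complex apart from each other in the libraries described below: Psmb5, the only member past the threshold, Psmb6, another catalytic subunit of the same ring, and Psma3 and Psmd14, which were among the highest in wildtype libraries 2 and 3. The genes were chosen after their values were seen. Each stretch holds the 160 bases before the RefSeq start of the gene (GRCm38.p6), 5′ to 3′ on the gene's strand. Capitals mark matches on either strand to TGACNNNGC, the core of the antioxidant response element, to CCAAT and to CGGAAG, an ETS core.
Psmb5, chr14:54617996-54618155, minus strand: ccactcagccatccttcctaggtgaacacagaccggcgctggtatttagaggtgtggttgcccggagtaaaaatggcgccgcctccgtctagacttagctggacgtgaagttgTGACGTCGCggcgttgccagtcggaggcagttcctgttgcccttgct
Psmb6, chr11:70525197-70525356, plus strand: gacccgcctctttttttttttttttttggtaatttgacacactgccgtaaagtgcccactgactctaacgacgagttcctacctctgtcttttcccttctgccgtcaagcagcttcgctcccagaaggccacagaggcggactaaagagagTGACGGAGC
Psma3, chr12:70974463-70974622, plus strand: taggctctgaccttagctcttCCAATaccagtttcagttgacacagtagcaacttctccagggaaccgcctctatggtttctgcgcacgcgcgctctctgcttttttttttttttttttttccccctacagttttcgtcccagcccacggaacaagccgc
Psmd14, chr2:61711534-61711693, plus strand: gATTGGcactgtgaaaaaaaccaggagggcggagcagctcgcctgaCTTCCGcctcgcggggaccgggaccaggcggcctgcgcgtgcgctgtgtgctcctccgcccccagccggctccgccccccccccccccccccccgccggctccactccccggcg
Psmb5 and Psmb6 each hold the TGACNNNGC core, and Psma3 and Psmd14 do not hold it in this window. RefSeq promoters of 300 bases (250 before and 50 after the start) were found for 35 of the 42 members, 38 promoters in all, and were compared with 32851 mouse promoters of the same length. Matches were sought on both strands, overlapping matches included, for 12 motifs. The TGACNNNGC core was in 6 of 38 member promoters (15.8%) and in 12.4% of all promoters. CCAAT was in 14 of 38 (36.8%) against 37.4%, and TATAAA in 3 of 38 (7.89%) against 13.6%. CGGAAG was in 22 of 38 (57.9%) against 16.9%, and GGGCGG, an Sp1-type box, in 22 of 38 (57.9%) against 35.7%. The variant TGAGNNNGC was in 13 of 38 (34.2%) against 17.6%. The core with an A after it, and the core with an A on either side, were in 2 of 38 (5.26%) against 3.04% and in 0 of 38 against 0.636%. CACGTG was in 3 of 38 (7.89%) against 7.15%, TGACGTCA in 0 of 38 against 1.79%, the palindrome of the nuclear respiratory factor NRF1 in 1 of 38 (2.63%) against 0.971% and the ZNF143 motif in 2 of 38 (5.26%) against 1.81%. These matches describe the letters of the promoters and were not related to binding.

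Levels were compared between genes per kilobase of the principal coding transcript. In wildtype the median level was 271 CPM per kb over the 14 tested 20S genes, 102 CPM per kb over the 20 cap genes and 19.1 CPM per kb over the 5 activators. Within the core the levels spanned 7.84-fold. Psmb6 was at the top with 622 ± 262 CPM per kb (SD, n = 6), followed by the alpha subunit Psma7 with 507 ± 103. The structural beta subunits Psmb1, Psmb3 and Psmb2 had 373 ± 158, 373 ± 74.9 and 366 ± 77.5 CPM per kb, and the alpha subunits Psma6, Psma3, Psma5 and Psma1 lay between 330 and 211. Psmb4, Psma4 and Psma2 had 179, 178 and 170 CPM per kb. The other catalytic subunits were at the bottom, with Psmb7 at 91.3 ± 29.1 and Psmb5 at 79.4 ± 7.94 CPM per kb. Neighbours in this order differed by less than the larger of their SDs except at the step from Psma2 to Psmb7, where the gap of the means exceeded either SD. With the union of all annotated exons as length, the span was 8.99-fold. The order within the core then changed, with Psma6 highest and Psmb7 lowest. Per kilobase of the principal transcript, Psmb6 ran from 415 to 968 CPM per kb over the 6 wildtype libraries. Libraries 2 and 3 were the highest for Psmb6 and the lowest for Psmb5, so the span in wildtype rested in part on them. In APPko the highest were Psma7, Psmb2 and Psmb6 with 505 ± 32.7, 497 ± 50.4 and 479 ± 37.7 CPM per kb, and Psmb5 was again lowest.

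The cap genes spanned 22.4-fold in wildtype (43.5-fold with union exons). The lid deubiquitinase Psmd14 had the highest level, 261 ± 111 CPM per kb, and the next were the ATPases Psmc5, Psmc2, Psmc1 and Psmc4 with 192, 167, 165 and 146 CPM per kb. With union exons Psmc5 was highest. The remaining ATPases Psmc3 and Psmc6 and the lid subunits Psmd6, Psmd7 and Psmd12 lay between 117 and 145. The large base subunits Psmd2 and Psmd1, which bind ubiquitin-like domains and form a scaffold, had 67.2 ± 7.72 and 47.4 ± 9.22 CPM per kb, and the ubiquitin receptor Psmd4 had 87.7 ± 23.1. The lid subunits Psmd11 and Psmd8 had 60.4 and 56.8 CPM per kb. Lowest were the lid subunits Psmd13 (18.4 ± 5.22) and Psmd3 (13.98 ± 5.15) and the base assembly chaperone Psmd9 (11.6 ± 1.74), below the chaperones Psmd10 (53.8) and Psmd5 (27.4). Of the activators, the PA28 subunits Psme2 and Psme1 had 148 ± 40.3 and 63.3 ± 9.01 CPM per kb, the nuclear PA28 gamma gene Psme3 had 19.1 ± 2.32, the PA200 gene Psme4 had 12.7 ± 0.584 and the Psme2-like gene Psme2b had 9.90 ± 2.30.

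**Figure D1:**
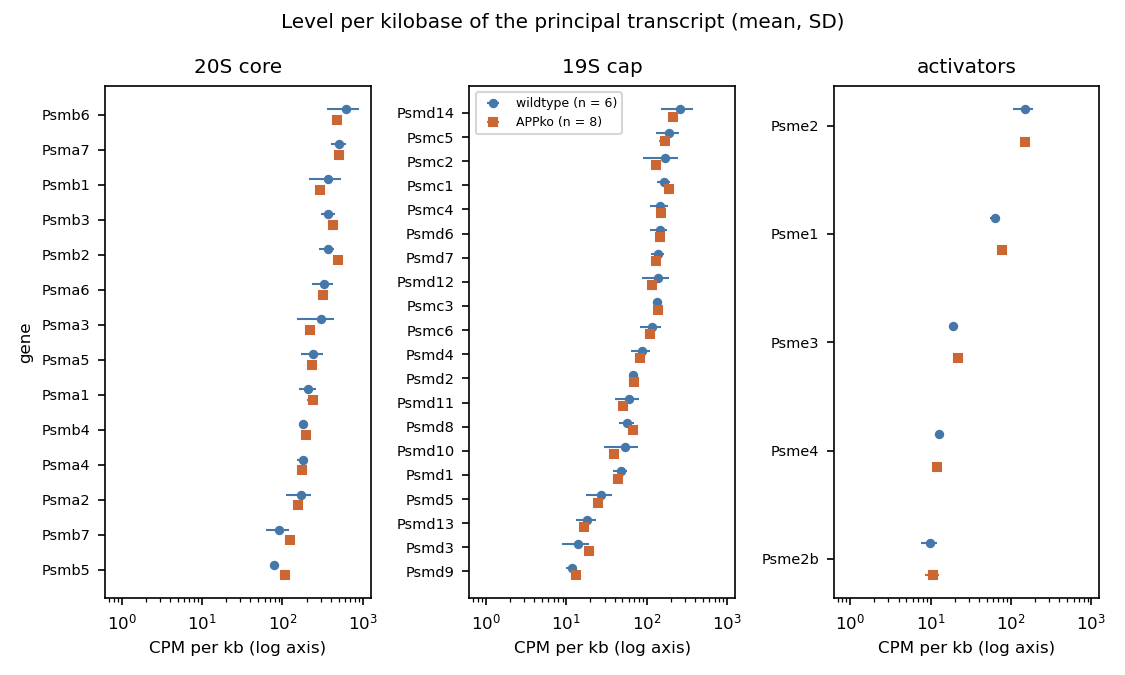
Level of each tested subunit gene per kilobase of its principal coding transcript (CPM per kb, log axis) in wildtype (circles, n = 6) and APPko (squares, n = 8), with bars for the SD. Psmb6 tops the core with 622 CPM per kb in wildtype and Psmb5 is lowest with 79.4, while the cap runs from Psmd14 at 261 to Psmd9 at 11.6. In APPko Psma7 tops the core with 505 CPM per kb, and Psmb6 has 479.

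APPko was then compared with wildtype. Psmb5 was the 1 of 40 tested members past the threshold of an adjusted p of 0.05 (edgeR's quasi-likelihood test, Benjamini-Hochberg over all 22150 genes). Over all tested genes the share called was 2.35% in either direction, 0.944% higher and 1.41% lower in APPko, so 1 of 40 is close to the background. At an unadjusted p under 0.05, 7 members were higher and 3 were lower in APPko, against 9.07% and 11.4% of all genes. The log2 change was above 0 in 17 members and below 0 in 23. The median log2 change was -0.01 in the core, -0.07 in the cap and 0.11 in the activators, beside -0.01 over all genes tested. For no member did all APPko libraries lie on 1 side of all wildtype libraries, which was the case for 0.506% of all genes in the upward and 0.609% in the downward direction. The 95% interval of the change lay within 1.5-fold either way for 29 of the 39 tested subunit genes and within 2-fold for all 39.

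Psmb5 (ENSMUSG00000022193.7, chromosome 14, 54614119 to 54618022, minus strand, GRCm38), the chymotrypsin-like subunit and the main target of proteasome inhibitors, had 76.8, 62.2, 65.6, 81.6, 70.3 and 71.9 CPM in wildtype libraries 1 to 6. In APPko libraries 1 to 8 it had 94.1, 93.7, 77.7, 96.8, 112, 100, 97.8 and 98.4 CPM. Only APPko library 3 fell within the wildtype range, and it lay below wildtype library 4 alone. The means were 71.4 ± 7.14 CPM (SD, n = 6) and 96.3 ± 9.45 CPM (SD, n = 8). This is a log2 change of 0.43 (SE 0.09, 1.35-fold, edgeR adjusted p = 0.0282). The change was above 0 in every alternative run, but the call was not kept in all of them. Without wildtype libraries 2 and 3 the log2 change was 0.36 with an adjusted p of 0.12. It was 0.40 (adjusted p = 0.066) without wildtype library 2 and 0.43 (adjusted p = 0.0726) without wildtype library 3. Without APPko library 1, 2, 4, 5, 6 or 7 the adjusted p was 0.055, 0.0553, 0.0533, 0.0732, 0.0532 and 0.0575. The log2 change of Psmb5 stayed between 0.41 and 0.45 in these 6 runs. Calls were also fewer over all genes in them, 0.174% to 0.67% against 2.35% with all libraries. The share was 0.383% without wildtype library 2, 0.288% without wildtype library 3 and 0.147% without both. A correction for a trend over GC content lowered the log2 change to 0.21 (adjusted p = 0.264) and a correction for exon length gave 0.34 (adjusted p = 0.0643). A microRNA gene on the same strand, Mir686, overlaps 109 bases (12.1%) of the exons of Psmb5.

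Neither of the other catalytic subunits passed the threshold. Psmb6 (chromosome 11, 70525367 to 70527858) had 352, 772, 758, 358, 331 and 410 CPM in wildtype libraries 1 to 6 and 395, 380, 366, 379, 394, 354, 348 and 444 CPM in APPko libraries 1 to 8. Wildtype libraries 2 and 3 were far above all others, and the remaining 4 wildtype libraries lay within or just below the APPko range. The log2 change was -0.38 (SE 0.18, adjusted p = 0.251) with all libraries and 0.08 (SE 0.09, adjusted p = 0.788) without those 2, so its direction rested on them. Psmb7 (chromosome 2, 38588036 to 38644087) had 68.8, 122, 127, 154, 92.5 and 71.7 CPM in wildtype and 124, 148, 110, 150, 164, 141, 145 and 180 CPM in APPko. Its wildtype values were low in libraries 1, 5 and 6 and reached into the APPko range in the other 3. This gave a log2 change of 0.46 (SE 0.17, adjusted p = 0.131), and exons of Nek6 on the opposite strand overlap 405 bases (11.8%) of those of Psmb7. No strand setting of the counting is given in the sources used here, so reads of such overlapping genes cannot be told apart.

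Of the structural beta subunits, Psmb2 had the smallest p after Psmb5. It had 241, 315, 392, 390, 305 and 244 CPM in wildtype libraries 1 to 6 and 437, 417, 347, 422, 465, 419, 409 and 495 CPM in APPko libraries 1 to 8. All APPko libraries but library 3 lay above all wildtype libraries. Psmb2 had a log2 change of 0.44 (SE 0.13, adjusted p = 0.0657), and 0.54 (SE 0.13, adjusted p = 0.0913) without wildtype libraries 2 and 3. Psmb1 had 507, 1104, 904, 512, 459 and 448 CPM in wildtype and 494, 511, 463, 536, 529, 540, 497 and 606 CPM in APPko. Here wildtype libraries 2 and 3 were the highest of all 14, and the log2 change moved from -0.33 (adjusted p = 0.322) to 0.12 without them. Psmb3 and Psmb4 had means of 286 and 212 CPM in wildtype and 325 and 236 CPM in APPko, with overlapping ranges.

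The alpha ring had 7 tested genes, of which 1 had a log2 change above 0 and 6 below, and none passed the threshold. Psma3 had 591, 1570, 1125, 675, 562 and 573 CPM in wildtype libraries 1 to 6 and 622, 606, 495, 593, 640, 702, 647 and 741 CPM in APPko libraries 1 to 8. Its wildtype library 2 was the highest value of any member in any library. The log2 change was -0.43 (SE 0.20, adjusted p = 0.243) with all libraries and 0.08 without wildtype libraries 2 and 3. Psma1 had 193, 317, 299, 307, 222 and 184 CPM in wildtype and 255, 287, 200, 282, 314, 321, 292 and 356 CPM in APPko, with overlapping groups and a log2 change of 0.19 (SE 0.15, adjusted p = 0.514), which was 0.35 (adjusted p = 0.354) without wildtype libraries 2 and 3. The group means of Psma2, Psma4, Psma5, Psma6 and Psma7 ranged from 207 to 495 CPM in wildtype and from 207 to 461 CPM in APPko.

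**Figure D2:**
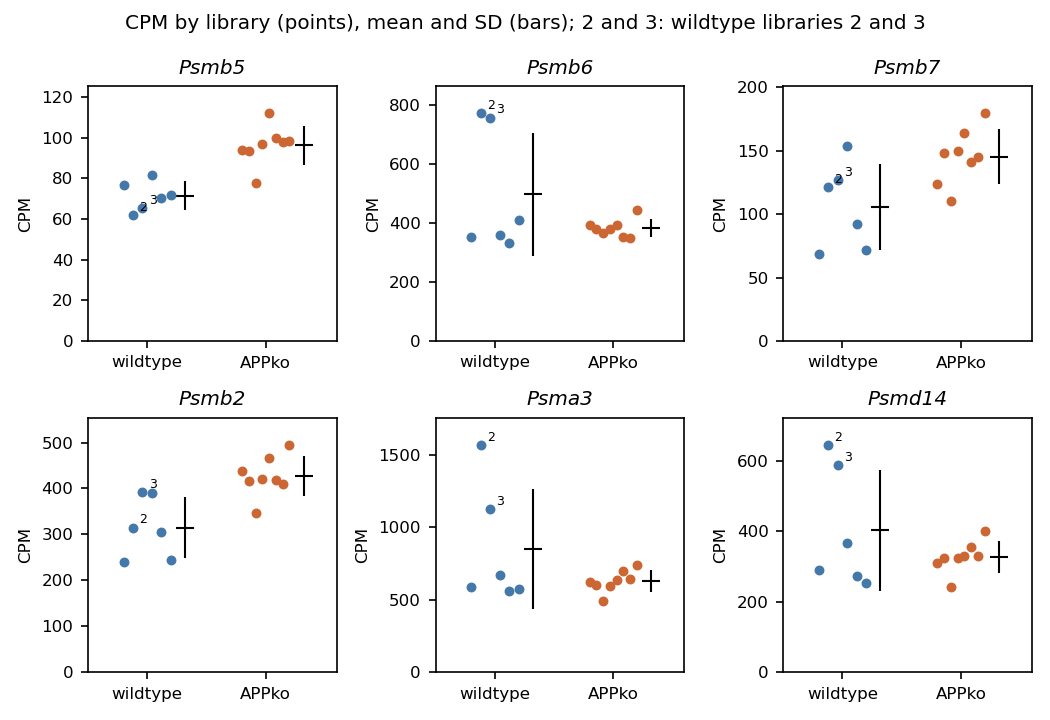
CPM of the catalytic subunits Psmb5, Psmb6 and Psmb7 and of Psmb2, Psma3 and Psmd14 in each library (points, wildtype n = 6, APPko n = 8), with the mean and SD beside them and wildtype libraries 2 and 3 numbered. In Psmb6, Psma3 and Psmd14 these 2 libraries lie above all others, and in Psmb5 they are the lowest.

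In the 19S cap no gene passed the threshold. Of its 20 genes, 7 had a log2 change above 0 and 13 below. Among the ATPases, Psmc2 had 218, 478, 460, 273, 176 and 185 CPM in wildtype and 214, 237, 188, 253, 246, 237, 218 and 274 CPM in APPko, again with wildtype libraries 2 and 3 above all others. Its log2 change was -0.35 (SE 0.20, adjusted p = 0.337), and 0.14 without these 2. Psmc1 had 228, 216, 307, 329, 243 and 250 CPM in wildtype and 288, 299, 219, 301, 343, 315, 306 and 313 CPM in APPko, a log2 change of 0.19 (adjusted p = 0.396) with groups that overlapped through wildtype libraries 3 and 4 and APPko library 3. Psmc3, Psmc4, Psmc5 and Psmc6 had wildtype means of 210 to 261 CPM and APPko means of 218 to 248 CPM. Exons of Slc39a13 on the opposite strand overlap 8.25% of those of Psmc3.

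In the base, the scaffold subunit Psmd1 had 139, 156, 187, 170, 112 and 121 CPM in wildtype and 143, 145, 131, 144, 136, 127, 139 and 136 CPM in APPko. The APPko libraries lay within the wildtype range, and the log2 change was -0.10 (adjusted p = 0.646), and 0.03 without wildtype libraries 2 and 3. The ubiquitin receptor Psmd4 had 123, 142, 230, 160, 120 and 150 CPM in wildtype and 149, 147, 136, 165, 148, 143, 142 and 145 CPM in APPko, a log2 change of -0.07 (adjusted p = 0.813). Wildtype library 3 alone stood above the rest, and the log2 change was 0.10 without it, as it was without wildtype libraries 2 and 3 together. Psmd2 had 199 ± 22.9 CPM in wildtype, against 205 ± 14.5 CPM in the APPko libraries.

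In the lid, Psmd3 had the smallest p, and its libraries ran opposite to those of Psmb6. It had 31.0, 14.6, 19.6, 33.3, 37.9 and 43.8 CPM in wildtype and 46.8, 39.7, 43.2, 40.3, 42.2, 40.1, 40.99 and 33.8 CPM in APPko. Wildtype libraries 2 and 3 were the lowest of all 14. For Psmd3 the log2 change was 0.45 (SE 0.18, adjusted p = 0.172), and 0.17 without them. Psmd8 had 89.98, 108, 139, 146, 100 and 92.8 CPM in wildtype and 126, 142, 118, 145, 143, 131, 120 and 147 CPM in APPko, with overlapping groups and a log2 change of 0.25 (adjusted p = 0.239). The deubiquitinase Psmd14 had 291, 645, 587, 365, 273 and 253 CPM in wildtype and 309, 324, 241, 325, 328, 355, 331 and 400 CPM in APPko. As for Psmb6, the 2 high wildtype libraries were 2 and 3, and the other 4 overlapped the APPko libraries. Its log2 change was -0.30 with all libraries and 0.15 without those 2. The means of Psmd6, Psmd7, Psmd11, Psmd12 and Psmd13 ran from 36.6 to 262 CPM in wildtype and from 33.5 to 224 CPM in APPko.

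The base assembly chaperones Psmd5, Psmd9 and Psmd10 help to assemble the ATPase ring and are not part of the finished particle. Psmd10, also known as gankyrin, had 51.7, 129, 113, 58.9, 55.6 and 53.8 CPM in wildtype and 58.7, 60.7, 50.1, 55.6, 49.9, 53.2, 50.8 and 66.6 CPM in APPko. Only wildtype libraries 2 and 3 were above 66.6 CPM. The log2 change was -0.47 (SE 0.19, adjusted p = 0.17), the lowest of the members, and 0.02 without those 2. Psmd9 had 25.1, 24.3, 30.7, 34.9, 32.6 and 33.9 CPM in wildtype and 31.6, 34.9, 26.8, 36.1, 35.3, 37.0, 34.9 and 38.9 CPM in APPko, a log2 change of 0.19 (adjusted p = 0.348) with overlapping groups. Psmd5 had a wildtype mean of 120 ± 43.8 CPM and an APPko mean of 108 ± 13.6 CPM. Psmc3ip, which is no subunit, had 9.16 ± 3.43 CPM in wildtype, against 6.79 ± 1.403 CPM in the APPko libraries, with a log2 change of -0.43 (adjusted p = 0.226). Its 2 highest values, 14.97 and 11.36 CPM, were those of wildtype libraries 2 and 3, and without them the log2 change was -0.07 (adjusted p = 0.916). Mlx exons on the opposite strand overlap 21.2% of those of Psmc3ip.

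No activator passed the threshold. Psme1, the alpha subunit of the PA28 cap that interferon induces, had 61.0, 74.5, 74.1, 86.9, 63.0 and 62.8 CPM in wildtype and 79.1, 97.4, 90.7, 88.3, 80.5, 89.3, 83.2 and 86.0 CPM in APPko. Wildtype library 4 alone reached into the APPko range. For Psme1 the log2 change was 0.30 (SE 0.09, adjusted p = 0.086), and 0.35 (adjusted p = 0.177) without wildtype libraries 2 and 3. With a trend over GC content removed it was 0.07 (adjusted p = 0.828). Its partner Psme2, 5.91 kb away on the same chromosome, had 113, 195, 187, 133, 117 and 108 CPM in wildtype and 146, 154, 154, 139, 140, 143, 121 and 154 CPM in APPko. Wildtype libraries 2 and 3 were the highest for Psme2 but not for Psme1. The log2 change of Psme2 was 0.02 (SE 0.13, adjusted p = 0.961) with all libraries and 0.30 (SE 0.09, adjusted p = 0.201) without those 2. Psme3 had 48.2, 41.5, 48.8, 59.1, 53.0 and 55.2 CPM in wildtype and 63.0, 61.2, 55.8, 58.6, 60.1, 56.6, 61.7 and 50.7 CPM in APPko, a log2 change of 0.20 (adjusted p = 0.228) with overlapping groups, and 0.12 without wildtype libraries 2 and 3. Psme4 had the lowest wildtype coefficient of variation of the tested members (4.59%), with 83.6, 88.9, 81.8, 77.3, 82.8 and 81.0 CPM against 81.0, 70.0, 76.2, 72.1, 78.4, 79.7, 82.2 and 87.6 CPM in APPko, and a log2 change of -0.07 (SE 0.08, adjusted p = 0.644), or -0.05 without those 2. Psme2b had a wildtype mean of 8.29 ± 1.92 CPM and an APPko mean of 8.94 ± 1.69 CPM.

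The pattern that divided the members was the level in wildtype libraries 2 and 3. In 18 of the 40 tested members both libraries lay above all 12 others, against 13.5% of all genes, and in 2 members (Psmd3 and Psmb5) both lay below all 12, against 10.5% of all genes. The 18 included 7 of 14 core genes (Psma2, Psma3, Psma4, Psma5, Psma7, Psmb1 and Psmb6), 9 of 20 cap genes (Psmc2, Psmc5, Psmc6, Psmd6, Psmd7, Psmd10, Psmd11, Psmd12 and Psmd14), Psme2 of the 5 activators, and Psmc3ip. The 2 libraries were the 2 highest of the 6 wildtype libraries in 22 members (background 17.6%) and the 2 lowest in 2 members (background 18.3%). Set against the median of wildtype libraries 1, 4, 5 and 6, the core genes in library 2 differed by 0.65 ± 0.45 on the log2 scale (mean and SD over 14 genes), from -0.26 for Psmb5 to 1.43 for Psma3. In library 3 the mean was 0.58 ± 0.31, from -0.18 for Psmb5 to 1.09 for Psmb6. The cap genes were wider apart: from -1.28 (Psmd3) to 1.25 (Psmc2) in library 2 and from -0.86 to 1.20 for the same genes in library 3. Over all 39 tested subunit genes, 31 were above this reference in library 2 and 34 in library 3, with means of 0.43 ± 0.59 and 0.54 ± 0.44, so most were shifted upward, by unequal amounts. An upward shift was not particular to these 2. Against the median of the other wildtype libraries, libraries 2 and 3 included, library 4 had 35 of the 39 genes above, with a mean of 0.23 ± 0.20. Against the same kind of median, libraries 1, 5 and 6 had 34, 34 and 31 of the 39 genes below. This reference is not that used for libraries 2 and 3, so the sizes of the shifts cannot be compared. The count ratio of Psmb6 to Psmb5 was 12.4 and 11.6 in wildtype libraries 2 and 3, 4.38 to 5.70 in the other 4 wildtype libraries and 3.52 to 4.71 in the 8 APPko libraries.

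**Figure D3:**
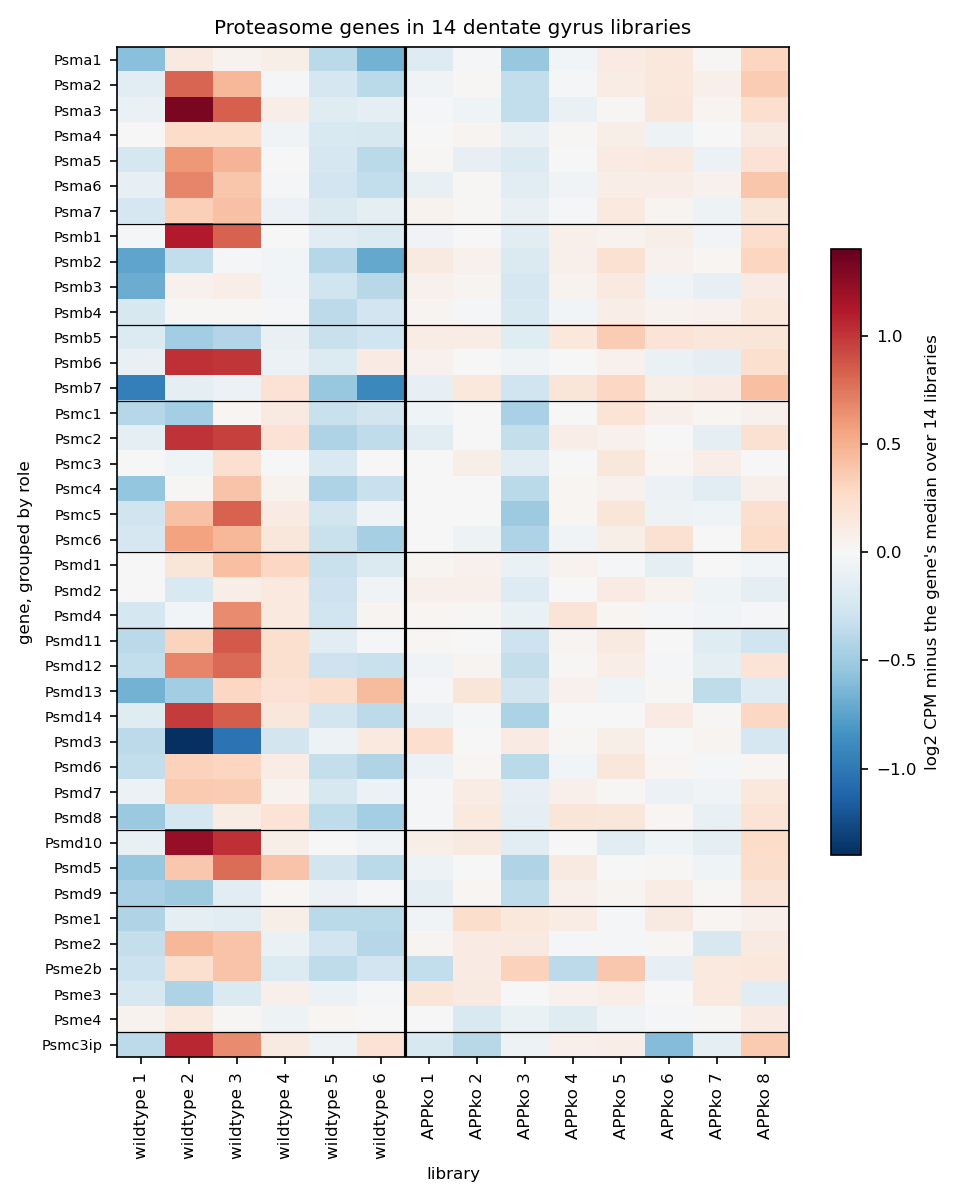
Log2 CPM of the 40 tested members minus each gene's median over the 14 libraries, with libraries in columns (6 wildtype left of the line, 8 APPko right of it) and genes in rows by role, from top to bottom alpha ring, structural beta, catalytic beta, ATPases, other base subunits, lid, base chaperones, activators and Psmc3ip. Wildtype libraries 2 and 3 are dark for many genes, red for Psma3, Psmb6, Psmc2 and Psmd10 and blue for Psmd3, and APPko library 3 is pale blue in most rows.

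Without wildtype libraries 2 and 3, 37 of the 40 members had a log2 change above 0, 14 of 14 in the core, 19 of 20 in the cap and 4 of 5 in the activators. Over all genes tested this share was 47.8% without the 2 libraries and 48.3% with them. The 2 libraries were left out with these data known. They were the 2 highest wildtype libraries in 22 members, so leaving them out by itself raised the log2 change of those members. The count of 37 thus follows in part from the choice of libraries. 20 of the 40 members changed sign. The median log2 change became 0.24 in the core, 0.13 in the cap and 0.30 in the activators, beside -0.02 over all genes. Of the 4 wildtype libraries then left, libraries 1, 5 and 6 had totals of 18290000, 16690000 and 18010000 counts. These lay below every APPko library (at least 20298058), while wildtype library 4 had 29710000. The part of library totals in the values without libraries 2 and 3 was not tested. At an unadjusted p under 0.05, 14 of the 42 members (the filter then kept Psma8 and Psmb11 too) were higher and 0 were lower, against 6.02% and 5.89% of all genes. No member passed the adjusted threshold, against 0.147% of all genes, and no member's groups separated (background 0.795% above and 0.88% below). Summed over the 16 core genes, the level was 3953, 7380, 6524, 4689, 3947 and 3844 CPM in wildtype libraries 1 to 6 and 4686, 4711, 4036, 4706, 5061, 4935, 4683 and 5575 CPM in APPko libraries 1 to 8. The mean was 5056 ± 1524 CPM in wildtype, 4799 ± 433 CPM in APPko and 4108 ± 390 CPM in the 4 wildtype libraries. For the cap the sums were 3668 ± 900, 3443 ± 285 and 3146 ± 454 CPM, and for the activators 354 ± 44.5, 377 ± 12.2 and 328 ± 24.4 CPM. All 41 subunit genes together took 0.857% ± 0.142 of the counts in wildtype and 0.884% ± 0.0508 in APPko.

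**Figure D4:**
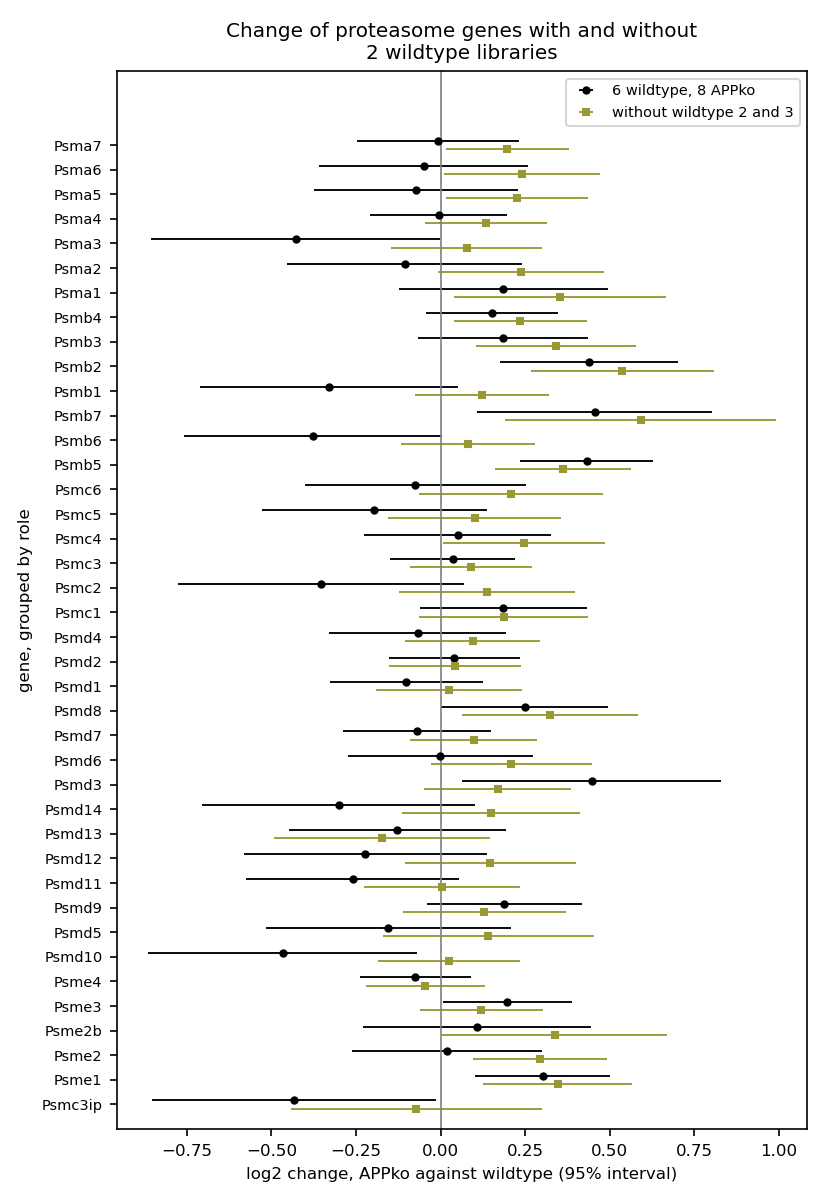
Log2 change in APPko against wildtype with its 95% interval for the 40 tested members, from all 14 libraries (black circles) and without wildtype libraries 2 and 3 (olive squares). With all libraries 17 points lie above 0, and without the 2 libraries 37 do.

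APPko library 3 stood on the low side. It had the lowest level of the 8 APPko libraries in 29 of 40 members, among them 13 of 14 core genes and 16 of 20 cap genes but no activator. Over all genes it was the lowest of the 8 in 18.4%. Against the median of the other APPko libraries its core genes differed by -0.27 ± 0.13 on the log2 scale, from -0.55 (Psma1) to -0.05 (Psmb6), and its cap genes by -0.29 ± 0.16. APPko library 8 had all 14 core genes above that median, by 0.21 ± 0.11 on average. The median coefficient of variation over the members was 25.8% in wildtype, 9.98% in APPko and 14.2% in the 4 wildtype libraries without 2 and 3. Over the 5878 genes with a mean of at least 30 CPM it was 19.7%, 10.5% and 14.2%.

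Several measures moved with wildtype libraries 2 and 3. Across the 39 tested subunit genes, the difference between these 2 and the other 4 wildtype libraries had a Pearson r of -0.53 with GC content, 0.53 with the mean log2 level and -0.11 with exon length. Over 5819 genes with a mean of at least 30 CPM the r with GC content was -0.43. These are descriptions across genes of the same libraries. Psmd3 and Psmb5, with 55.4% and 56.6% GC, were low in both libraries, while Psmb6 with 51.6% and Psma7 with 57.4% were high. The 83 ribosomal protein genes summed to 23570 and 23990 CPM in these libraries, up to 32020 CPM in the other wildtype libraries and 29420 to 37030 CPM in APPko. 6 ubiquitin and E1 enzyme genes summed to 8650 and 9992 CPM in these libraries, against 3340 to 4431 CPM in APPko. With a trend over GC content removed from the counts, no member passed the threshold (0.926% of all genes did). Of the log2 changes of 20 members recomputed in this way, those of Psmb5, Psme1, Psmd8, Psma3, Psmc2 and Psmd1 then came closer to 0 by more than 1.5 times (0.21, 0.07, 0.14, -0.29, -0.21 and -0.05), those of Psma1 and Psmd4 moved away from it (0.29 and -0.18), and those of Psme2 and Psme4 changed sign. The part of these 2 libraries' quality in the genotype differences was not tested beyond the values with and without them.

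**Figure D5:**
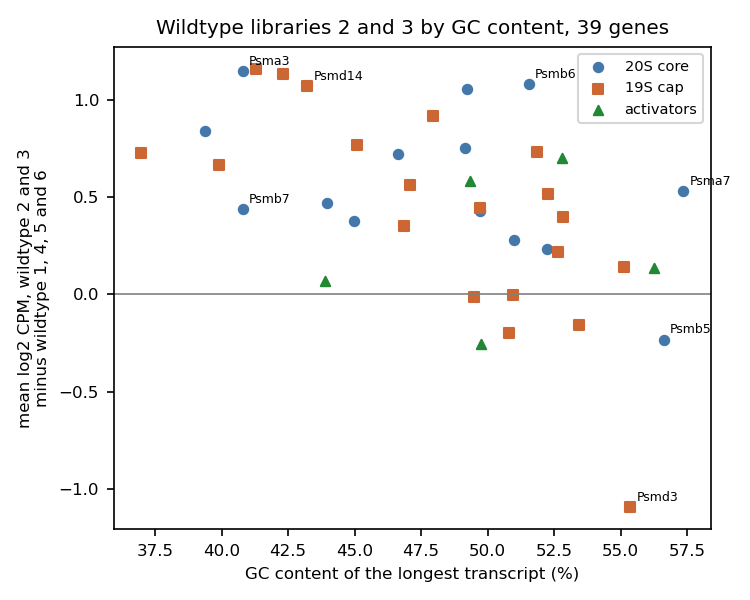
Difference of the mean log2 CPM of wildtype libraries 2 and 3 from that of wildtype libraries 1, 4, 5 and 6 against the GC content of the longest transcript, for 39 subunit genes (circles, 20S core; squares, 19S cap; triangles, activators). The points fall from low to high GC content (Pearson r = -0.53), with Psmd3 and Psmb5 at the lower right and Psma7 and Psmb6 above the trend.

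Among the f libraries alone (3 wildtype, 7 APPko), 10 members passed the threshold, against 15.6% of all genes there. Psma3, Psmb1, Psmb6, Psmc2, Psmd10, Psmd14 and Psmc3ip were lower and Psmb5, Psmd3 and Psme3 higher. Of the 3 wildtype libraries in that comparison 2 are libraries 2 and 3, so suffix and library cannot be told apart. With only 1 APPko library marked m there was no comparison within m. A test of whether the genotype difference varied with the suffix therefore rested on that 1 library, assumed to vary like the others. It gave 15 of 40 members an unadjusted p under 0.05, against 21.4% of all genes, and none an adjusted p under 0.05 (smallest edgeR adjusted p = 0.0698, Psma6), against 1.86% of all genes.

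The immunoproteasome subunits Psmb8, Psmb9 and Psmb10 replace Psmb5, Psmb6 and Psmb7 in cells exposed to interferon and in immune cells. Psmb10 had 45.2 ± 6.19 CPM in wildtype, against 59.1 ± 5.74 CPM in the APPko libraries and rose past the threshold (log2 change 0.39, edgeR adjusted p = 0.0495). This call was lost without wildtype libraries 2 and 3 (0.33, adjusted p = 0.208), with a GC trend removed (0.17, adjusted p = 0.394), and with voom, a length correction or a replicate block (adjusted p = 0.0937, 0.0887 and 0.111). With 1 library left out the adjusted p ran from 0.022 to 0.118 and was under 0.05 without wildtype library 4 or 6 only. Over all genes the share called in those runs was 0.174% to 6.36%. Psmb8 had 10.0 ± 2.15 and 13.9 ± 2.15 CPM (adjusted p = 0.0742), and Psmb9 had 2.30 ± 0.342 and 3.01 ± 0.650 CPM (adjusted p = 0.228). Each was set against the constitutive subunit it replaces, as a ratio of levels per kilobase in the same library. Psmb8 was at 7.85% ± 2.07 of Psmb5 in wildtype and 8.13% ± 2.11 in APPko (log2 difference 0.05, two-sided exact permutation test, p = 0.777), and the difference was 0.20 (exact permutation p = 0.311) without wildtype libraries 2 and 3. Psmb9 was at 0.316% ± 0.133 of Psmb6 in wildtype and 0.470% ± 0.116 in APPko (log2 difference 0.65, exact permutation p = 0.0533, adjusted over the 3 ratios 0.16). The ratios of 0.140% and 0.195% in wildtype libraries 2 and 3 were the lowest, and without them the log2 difference of Psmb9 to Psmb6 was 0.25 (exact permutation p = 0.323). In the f libraries alone it was 1.116 (exact permutation p = 0.05, adjusted 0.15). Psmb10 was at 40.96% ± 13.8 of Psmb7 in wildtype and 36.9% ± 7.73 in APPko (log2 difference -0.11, exact permutation p = 0.585), and the difference was -0.32 (exact permutation p = 0.158) without those 2. With all libraries none of the 3 ratios passed the threshold after adjustment. The constitutive subunit was the more abundant of each pair in both genotypes.

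Other genes of the pathway were taken from fixed lists, and up to 2 genes with the smallest p are named from each pathway list. Where a pair of means follows a gene, wildtype comes first. The 2 cap subunits with other symbols, the ubiquitin receptor Adrm1 and the small lid subunit Sem1, had 40.3 ± 13.4 and 220 ± 36.7 CPM in wildtype and 54.6 ± 7.50 and 272 ± 33.4 CPM in APPko, and neither passed the threshold (adjusted p = 0.144 and 0.149). None of the 6 genes of core assembly and inhibition passed. In this list the assembly chaperones Psmg4 and Psmg3 had the smallest p, with 50.1 ± 9.19 and 7.84 ± 1.20 CPM in wildtype against 60.6 ± 9.05 and 9.25 ± 1.24 CPM in APPko. Of 9 enzymes and adaptors that bind the proteasome, 1 was called lower, against 1.41% of all genes. This was Zfand5, which stimulates the 26S particle and fell from 322 ± 72.9 to 226 ± 17.7 CPM (edgeR adjusted p = 0.0373). The other 8 did not pass, including Ecpas with 143 ± 18.7 and 118 ± 9.33 CPM (adjusted p = 0.115). The median log2 change of the 9 was -0.23, and 0.04 without wildtype libraries 2 and 3. Zfand5 did not pass the threshold without these 2 libraries. The 9 genes summed to 1594 and 1384 CPM in them and to 903 to 1077 CPM in APPko. None of 9 genes of the Nfe2l1 pathway passed. Sel1l, a part of the membrane complex that carries Nfe2l1 out of the endoplasmic reticulum, had 147 ± 10.9 and 126 ± 4.24 CPM, and the ligase of that complex, Syvn1, had 12.3 ± 2.96 and 16.1 ± 1.38 CPM (adjusted p = 0.115 and 0.122).

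None of the 6 ubiquitin and E1 genes, the 6 shuttle factors and the 7 genes of the p97 unfoldase complex passed the threshold. Rps27a, which encodes ubiquitin fused to a ribosomal protein, had 403 ± 74.0 CPM in wildtype, against 546 ± 61.1 CPM in the APPko libraries (adjusted p = 0.0575). The polyubiquitin gene Ubb had 4820 ± 2951 and 2840 ± 345 CPM (adjusted p = 0.105). Its libraries ran from 2465 to 9250 CPM in wildtype and from 2260 to 3359 CPM in APPko. The 6 genes of its list summed to 8650 and 9992 CPM in wildtype libraries 2 and 3. The wildtype mean of 5664 CPM includes these libraries, and the lowest wildtype sum was 3268 CPM. In APPko the mean was 3839 CPM. The shuttle factor Rad23b had 126 ± 22.97 CPM in wildtype against 117 ± 8.35 CPM in APPko. The p97 cofactors Nploc4 and Faf1 had 27.8 ± 3.64 and 57.7 ± 12.1 CPM in wildtype against 35.5 ± 3.20 and 46.0 ± 4.15 CPM in APPko (adjusted p = 0.0648 and 0.116).

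Markers of cell types differed between the genotypes beside the subunits. Of 8 granule cell markers, 4 fell (Rfx3, Npy1r, C1ql3 and Ntng1), and their summed level was 657 to 1270 CPM in wildtype and 494 to 851 CPM in APPko. Of 10 microglia markers, 2 rose (Tyrobp and C1qb), with sums of 476 to 911 CPM in wildtype and 658 to 1156 CPM in APPko. None of 8 markers each of neurons, astrocytes, oligodendrocytes, and vascular cells and fibroblasts passed the threshold. The sums were 3698 to 6463 and 3686 to 4932 CPM for neurons, 6177 to 8538 and 5464 to 8220 CPM for astrocytes, 513 to 1444 and 574 to 1002 CPM for oligodendrocytes, and 129 to 232 and 128 to 193 CPM for vascular cells and fibroblasts. No list had a marker at 0 in all libraries. Without wildtype libraries 2 and 3 none of these markers passed the threshold, nor did Psmb10 or Zfand5. The part of cell composition in the levels of the subunits was not tested.

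Pseudogene copies can share reads with their parent genes. The rows of 5 annotated pseudogenes of the members were low, with at most 8.77 CPM for Psma5-ps and 1.97 CPM for Psmb6-ps2, and at most 8 counts in any library for Psmb5-ps, Psmb6-ps and Psmb7-ps2. How reads with several matches were counted is not given in the sources used here, so the levels of Psma5, Psmb6 and Psme2 with its copy Psme2b are less certain.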

How the data were processed

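The authors deposited 1 table of raw counts by gene symbol for each library. They ran cutadapt (3.5), STAR (2.7.8a) and featureCounts (2.0.1) with the GRCm38 genome, per the submitters' processing notes. Per the labels' protocols a low-input kit amplified the cDNA in 12 cycles and the libraries in 10, and read pairs of 151 bp were made. How strand and multiply mapped reads were handled is not given in the sources used here. No molecular identifiers are named, so reads are not independent molecules. Gene positions, types and exons came from the annotation that the authors deposited.

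Titles gave the genotype of each sample. The edgeR filter on expression left 22150 genes, and TMM factors scaled the libraries. The test was edgeR's quasi-likelihood test of APPko against wildtype, robust and without covariates, with Benjamini-Hochberg adjustment over all these genes and a threshold of 0.05. CPM are TMM-scaled, and ± gives an SD. Exact permutation tests compared the 3 ratios. Software was edgeR 4.0.16 in R 4.3.3, with sva 3.50.0, DESeq2 1.42.0 and limma 3.58.1 for alternatives. In simulated counts of 21486 genes the test recovered 35.8% of the genes changed 1.5-fold, 74.6% of the 2-fold and 95.5% of the 4-fold changes, and made 7 false calls. Libraries of a genotype differed from each other by more than sampling noise in all 43 pairs (chi-square per degree of freedom at least 8.78).

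The members, the gene lists and the left-out libraries were chosen with earlier results of these data known. Values are given by library for members past the threshold, for the 2 members of each role with the smallest p, for the catalytic subunits, for Psme1 to Psme4 and for the highest and lowest levels per kilobase, and of each further pathway list (not the cell type markers, of which those past the threshold are named) the 2 genes with the smallest p are named, except 1 gene that is not reported here. The alternatives were other scalings, tools and filters, a replicate block, the header suffix, trends over exon length and GC content, 1 surrogate variable, thinned libraries and each library left out. Leaving out wildtype libraries 2 and 3 with APPko library 3, and union exon length, were added after the data were seen.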

Additional observations from a re-analysis of the deposited data

Results flagged for a closer look

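The level of each tested member and each of the 3 ratios was checked within wildtype and within APPko for a library far from the rest of its group. Of 86 groups checked, 7 held such a library, where chance gives about 1 in 20. In APPko library 3, the ATPase gene Psmc1 had 219.0 CPM against 288.5 to 342.8 CPM in the other 7, and the ATPase gene Psmc5 had 156.2 CPM against 212.0 to 260.2 CPM. In the same library the ratio of Psmb8 to Psmb5 was 12.87%, against 6.124% to 8.758% in the others. Psmd4, the ubiquitin receptor of the cap, had 230.5 CPM in wildtype library 3 against 119.9 to 159.7 CPM, and 165.2 CPM in APPko library 4 against 136.5 to 148.8 CPM. The alpha subunit Psma6 had 419.9 CPM in APPko library 8, the only APPko library marked m, against 287.6 to 340.2 CPM. The PA28 subunit Psme2 had 120.9 CPM in APPko library 7 against 138.8 to 154.4 CPM. No other wildtype library stood alone in this way. Wildtype libraries 2 and 3, which were high together for many members, lie near each other in those groups.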

How the results depend on the processing

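The number of members past the threshold was 1. It was 3 with total counts as scaling, with DESeq2 (Psmb5, Psmb2 and Psme1 in both) and with limma voom (Psmb5, Psmb2 and Psmb7), and 2 (Psmb5 and Psmb2) with no count filter, with a mean of at least 1 CPM, with the header suffix as covariate and without wildtype libraries 2 and 3 and APPko library 3. It was 6 with 1 surrogate variable, 10 in the f libraries alone, and 0 without wildtype libraries 2 and 3, with a length trend removed and with a GC trend removed. The share of all genes called was 2.35% as reported, 1.6% with total counts and with voom, 11.5% with DESeq2, 0.96% with no filter, 4.12% at a mean of 1 CPM, 6.53% with the suffix, 0.611% without the 3 libraries, 5.13% with the surrogate variable, 15.6% in the f libraries, 0.147% without wildtype libraries 2 and 3, 1.56% with the length trend and 0.926% with the GC trend removed. With the replicate number as a block the number of members called was 0 (Psmb5 log2 change 0.43, adjusted p = 0.11), where 0.093% of genes were called. Same-numbered libraries deviated with correlations of -0.339 to 0.186. These values cannot tell whether such libraries shared an animal or a day, and the labels do not say. Leaving out 1 library gave 0 to 4 members, against 0.174% to 6.36% of all genes. The 4 (Psmb5, Psmb2, Psme1 and Psmb7) were called without wildtype library 4, the run with the share of 6.36%.

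The median log2 changes became 0.237 (core), 0.1335 (cap) and 0.2955 (activators) without wildtype libraries 2 and 3, and 0.2657, 0.1654 and 0.2798 without APPko library 3 as well. The activators' median was 0.226 with total counts and -0.0985 in the f libraries. Leaving out 1 library gave -0.0493 to 0.0886 in the core, -0.128 to 0.0318 in the cap and 0.0531 to 0.2015 in the activators. The log2 difference of Psmb8 to Psmb5 was -0.048 and that of Psmb10 to Psmb7 0.1247 in the f libraries, both reversed, and that of Psmb9 to Psmb6 was 1.116 there and 0.2462 without wildtype libraries 2 and 3. With 1 library left out they ranged from -0.0473 to 0.175 and from -0.207 to 0.0241, and Psmb9 to Psmb6 from 0.4415 to 0.797, with an adjusted exact permutation p of 0.042 without APPko library 8. Psmb8 to Psmb5 also reversed without wildtype library 4 (-0.0116).

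Other reversals concerned genes that did not pass the threshold. Without wildtype libraries 2 and 3 the log2 changes were 0.0251 for Psmd1, 0.0951 for Psmd4, 0.137 for Psmc2, 0.0819 for Psmb6, 0.0769 for Psma3, 0.122 for Psmb1 and 0.0246 for Psmd10. Without APPko library 3 as well they were 0.0343, 0.108, 0.174, 0.0887, 0.119, 0.1435 and 0.0431. With total counts Psmd1 was at 0.00865, Psmd4 at 0.0456 and Psme4 at 0.0204, and with voom Psmd1 was at 0.0404, Psmd4 at 0.0604 and Psmc2 at 0.0216. Psmd4 was at 0.0207 with a surrogate variable and ranged from -0.1317 to 0.0988 with 1 library left out, highest without wildtype library 3. Psme2 was at -0.0513 with the suffix, -0.2104 in the f libraries, -0.0552 with the length trend removed and -0.1103 with the GC trend removed. With 1 library left out it ranged from -0.0448 to 0.131, and was below 0 without wildtype library 1, 5 or 6. Psme4 was at 0.0192 with the GC trend removed. The cause of these changes was not tested. The simulated recovery of 35.8% for 1.5-fold changes is a limit for this number of libraries with counts drawn independently for each gene. The simulation held no shift shared by the genes of a library, so recovery for these members may differ.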
